A study of Mus musculus with 27 samples.

Results

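The elastic fibre and latent TGF-beta binding genes described here are 10 genes taken by their symbols from the count table, which lists 57683 features: the elastin gene Eln, the fibrillin genes Fbn1 and Fbn2, the microfibril-associated genes Mfap2, Mfap4 and Mfap5, and the latent TGF-beta binding protein genes Ltbp1, Ltbp2, Ltbp3 and Ltbp4. All 10 were found, each as 1 feature, and 9 of them could be measured. Each library held polyadenylated RNA of 1 heart from the inbred mouse strain C57BL/6J, and the labels name no altered gene in any group. The groups were 7 whole hearts of E13.5 embryos (E for embryonic day; the titles give E13.5 for all, while the last digits of the age field count up by 1 from one embryo to the next, and the titles were followed), ventricular apexes of 6 unoperated adults at 6 weeks of age and of 6 at 16 weeks, apexes of 4 adults at 12 weeks after 4 weeks of pressure overload by TAC (transverse aortic constriction, a surgical narrowing of the aorta), and apexes of 4 sham-operated adults at 12 weeks. The unoperated and sham-operated adults and 3 of the TAC hearts were labelled male, 1 TAC heart female, and the embryos of unknown sex.

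Elastic fibres give tissues their recoil. They form when the soluble precursor made from Eln is laid down on a scaffold of microfibrils, whose main subunits are the fibrillins, and is then crosslinked by lysyl oxidases. The small glycoproteins of the Mfap genes sit on the microfibrils. The latent TGF-beta binding proteins (LTBPs) are relatives of the fibrillins: several of them bind the inactive form of the growth factor TGF-beta and anchor it to the matrix, where integrins, proteases or thrombospondin can release it. In the heart these proteins lie in valves, vessel walls and the interstitial matrix, and are made mainly by fibroblasts, smooth muscle cells and other mesenchymal cells.

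RefSeq's table of gene starts (build GRCm38.p6) held promoters for 6 of the 10 genes. The sequences of the genes whose changes under TAC are furthest apart are given here, since Ltbp2 rose most and Ltbp1 was the 1 gene lower, with Ltbp3 and Fbn1 between them. Each is the strand of the gene, read 5′ to 3′ from 250 to 51 bases before a start, and capitals mark 2 sets of letters searched on both strands: CAGAC, a binding element of the SMAD proteins that carry the TGF-beta signal, and GGGCGG, the GC box. A further set, GGAATG, the element of the TEAD factors, was also searched. It was in none of these 5 windows and in 1 of the 2 windows of Mfap2, a gene that rose under TAC, beside 1 CAGAC.
Ltbp2, chr12:84876542-84876741, minus strand: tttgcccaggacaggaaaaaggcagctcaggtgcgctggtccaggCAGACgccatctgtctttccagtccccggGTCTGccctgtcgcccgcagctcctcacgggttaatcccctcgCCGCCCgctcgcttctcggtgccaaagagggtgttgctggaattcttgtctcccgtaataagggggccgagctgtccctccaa
Ltbp3, chr19:5740650-5740849, plus strand: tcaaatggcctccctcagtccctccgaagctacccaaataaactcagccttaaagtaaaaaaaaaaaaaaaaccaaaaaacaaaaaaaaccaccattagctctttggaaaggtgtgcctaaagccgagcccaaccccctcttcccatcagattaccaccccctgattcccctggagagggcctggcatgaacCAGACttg
Fbn1, chr2:125506489-125506688, minus strand: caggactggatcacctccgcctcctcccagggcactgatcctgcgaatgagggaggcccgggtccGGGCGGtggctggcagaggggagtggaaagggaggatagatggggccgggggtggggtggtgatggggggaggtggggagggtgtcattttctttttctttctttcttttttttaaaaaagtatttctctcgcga
Ltbp1, upstream start, chr17:75005279-75005478, plus strand: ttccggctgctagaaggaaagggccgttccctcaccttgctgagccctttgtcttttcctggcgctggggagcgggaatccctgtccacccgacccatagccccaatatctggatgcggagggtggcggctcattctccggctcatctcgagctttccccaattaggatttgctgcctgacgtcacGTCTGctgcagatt
Ltbp1, downstream start, chr17:75178531-75178730, plus strand: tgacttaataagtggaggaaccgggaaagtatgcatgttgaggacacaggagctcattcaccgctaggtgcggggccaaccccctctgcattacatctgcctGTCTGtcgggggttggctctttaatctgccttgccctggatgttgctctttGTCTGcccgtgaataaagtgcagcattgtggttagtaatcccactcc
CAGAC occurred in 35.8% of the 32851 promoter windows of this length in the table, GGGCGG in 24.6% and GGAATG in 10.7%. The Ltbp2 window held CAGAC 2 times and GGGCGG 1 time. Both starts of Ltbp1 held CAGAC as well, 1 time at the upstream and 2 times at the downstream start, so that these letters stood in front of the gene that rose most and of the gene that fell. The Ltbp3 window held 1 CAGAC and the Fbn1 window 1 GGGCGG. The 3 overlapping or neighbouring windows of Ltbp4, not printed here, held only GGGCGG, and the other window of Mfap2 held none of the 3 sets of letters.

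Library totals lay between 7543375 and 12646039 counts for embryos, 2092270 and 2682955 for hearts of 6 weeks, 2164604 and 2642307 for hearts of 16 weeks, 10411417 and 11846819 for TAC hearts, and 7958592 and 11561952 for sham hearts. The unoperated adult libraries had the lowest depth and another base quality encoding than the others, so that depth, encoding and group cannot be told apart for them. By their counts of Y-linked genes, 8 adult libraries were discordant with their labelled sex, 2 in each adult group (6-week and 16-week replicates 1 and 6, TAC replicates 3 and 4, sham replicates 2 and 3). Groups were kept as labelled, and leading results are also given without these sex-discordant libraries. Among the embryos, replicates 3 and 6 held 690 and 826 counts of Y-linked genes, and the others 0 to 6. The part of sex in the E13.5 differences was not tested. Levels are given as CPM (counts per 1000000, scaled by TMM, a method that corrects for differences in RNA composition, over all 27 libraries), and levels of different genes are compared as RPKM, here the CPM per kilobase of exonic bases that lie outside every other feature. Fold changes, standard errors (SE) and p-values come from edgeR's quasi-likelihood test, with Benjamini-Hochberg adjustment over all features tested and a threshold of 0.05.

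Eln, the precursor of the elastic core itself, could not be measured. It lies on the minus strand of chromosome 5 from 135178466 to 135223124 (mm9), and of its 3781 exonic bases only 69, or 1.82%, lie outside other features. A noncoding feature, n280638, has 37 exons on the same strand and shares 3664 of these bases. Eln itself held 9 counts over the 7 embryonic hearts, with 0 to 3 in each, 0 over the 6-week and 0 over the 16-week hearts, 1 over the TAC hearts and 0 over the sham hearts. The copy n280638 held 27 counts at E13.5, 0 at 6 weeks, 0 at 16 weeks, 1 in TAC hearts and 1 in sham hearts. Such counts describe the overlap of the features and give no level of elastin RNA.

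**Figure D1:**
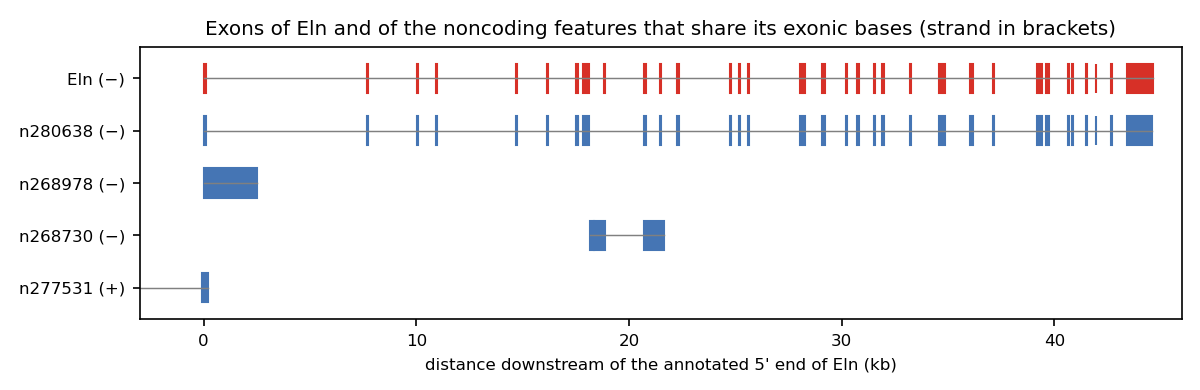
Exons (boxes) of Eln and of the 4 noncoding features that share its exonic bases, by distance in kilobases downstream of the annotated 5′ end of Eln, 1 row per feature with its strand in brackets. The 37 exons of n280638 follow those of Eln along the whole gene, and 1.82% of the exonic bases of Eln are left to it alone.

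Shorter same-strand features inside Eln did hold counts. The single exon of n268978 spans 2529 bases at the 5′ end of Eln, 97 of them exonic in Eln, and had a median of 12.5 CPM at E13.5, 5.03 at 6 weeks, 5.19 at 16 weeks, 4.58 in TAC hearts and 4.60 in sham hearts. For n268730, with 3 exons further inside the gene, the medians were 4.29, 1.55, 0.933, 1.67 and 0.504 CPM in the same order. Both medians were highest in embryonic hearts. Most bases of these features are intronic in Eln, the libraries do not keep strand, and no test was made on them.

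The other members were largely free of overlap. All exonic bases of Ltbp4, Mfap2 and Mfap5 were their own, as were 99.9% for Ltbp1, 98.0% for Ltbp3, 95.4% for Mfap4, 95.3% for Fbn1, 89.2% for Ltbp2 and 79.9% for Fbn2. Fbn1 lies on chromosome 2 (125126330 to 125333729, minus strand), Ltbp1 on chromosome 17 (75404869 to 75791852, plus), Ltbp2 on chromosome 12 (86124163 to 86217482, minus), Ltbp3 on chromosome 19 (5740904 to 5758532, plus) and Ltbp4 on chromosome 7 (28090155 to 28122711, minus). Mfap2 lies on chromosome 4 (140566552 to 140571890, plus), Mfap4 on chromosome 11 (61298933 to 61302402, plus), Mfap5 on chromosome 6 (122455863 to 122479308, plus) and Fbn2 on chromosome 18, all in mm9. Among coding genes, Mapk7 on the opposite strand shares 89 exonic bases with Mfap4.

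**Figure D2:**
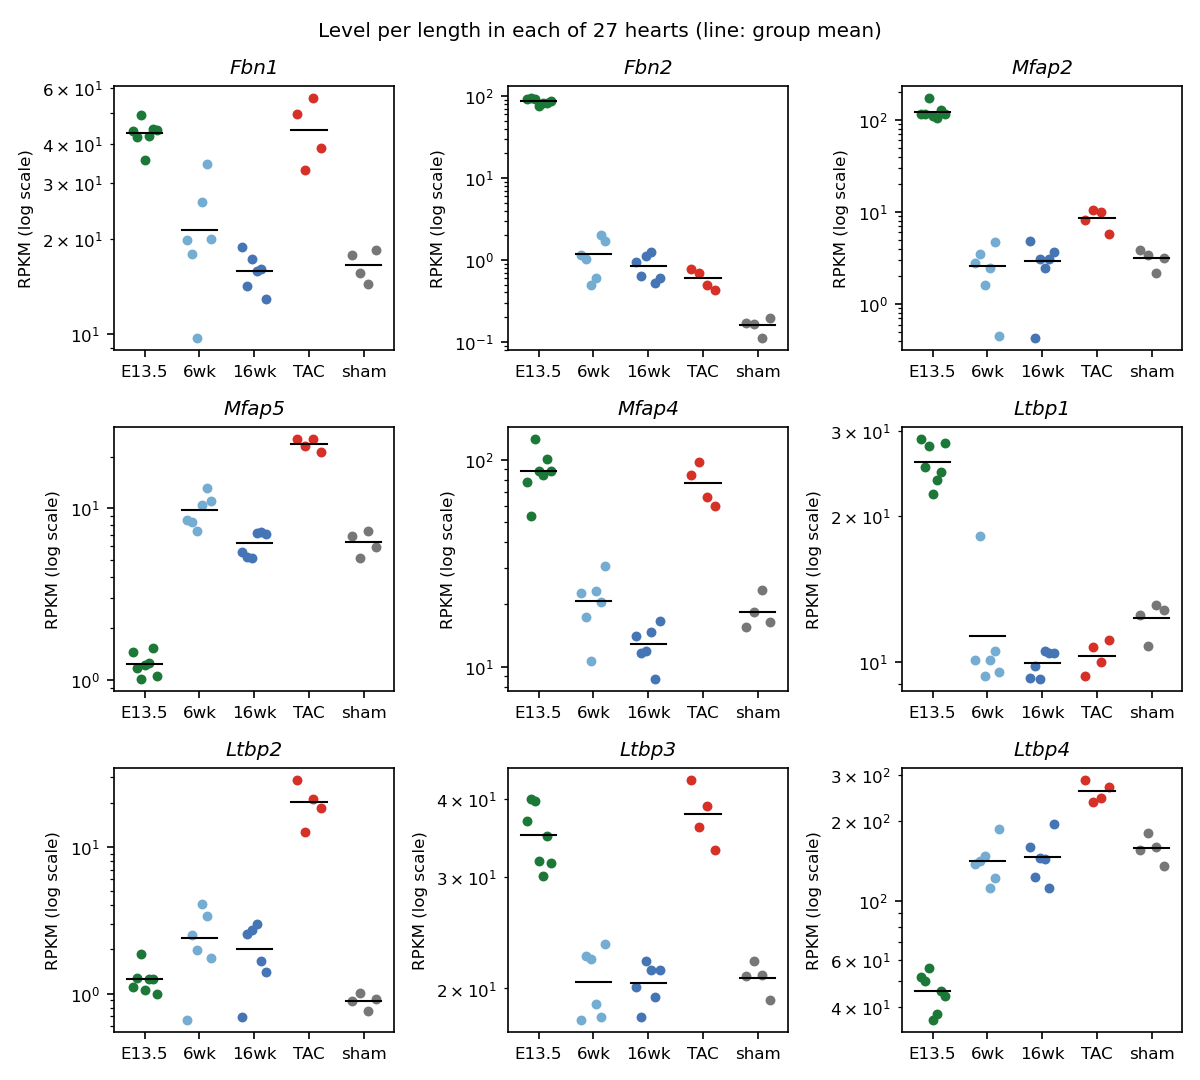
RPKM (log axis) of the 9 measurable members in each of the 27 hearts, 1 point per heart, with the group mean as a line; groups are E13.5, 6 weeks, 16 weeks, TAC and sham. Fbn2 and Mfap2 are highest in embryonic hearts, Ltbp2 in TAC hearts, and Mfap5 is lowest at E13.5 and highest under TAC.

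The proportions of the members within each family differed between embryonic and unoperated adult hearts. This comparison asks how the heart before birth differs from the mature heart. The fibrillin Fbn2 was 87.9-fold higher at E13.5 and the microfibril-associated gene Mfap2 43.5-fold, while Mfap5 was 6.22-fold and Ltbp4 3.13-fold lower. Of the 9 members tested, 6 were higher at E13.5 (Fbn1, Fbn2, Ltbp1, Ltbp3, Mfap2 and Mfap4) and 3 lower (Ltbp2, Ltbp4 and Mfap5), where 44.1% of the 12766 features tested were higher and 39.7% lower. Their median log2 fold change was 1.23, against 0.07 over all features tested. E13.5 and adult hearts did not overlap in CPM for 8 of the 9 (Ltbp2 overlapped), as for 54.5% of all features tested. The counts of 6 and 3 were the same without the 4 sex-discordant libraries among these adults.

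Among the fibrillins, Fbn2, known as the fibrillin of developing tissue, stood at 631 to 794 CPM at E13.5 with a median of 739, against 4.12 to 17.0 CPM with a median of 8.31 in the 12 unoperated adults. Every embryonic heart lay far above every adult heart, and the log2 fold change was 6.46 ± 0.14 (SE, adjusted p = 1.01e-20). Fbn1, the main fibrillin of adult tissue, which is mutated in Marfan syndrome, stood at 412 to 572 CPM (median 509) at E13.5, against 112 to 399 CPM (median 203) in adults. The lowest embryo was just above the highest adult, 6-week replicate 5, and the log2 fold change was 1.23 ± 0.16 (adjusted p = 1.02e-06).

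Per length, Fbn2 was the more abundant fibrillin RNA in every embryonic heart and in no adult heart. It averaged 87.1 ± 7.01 RPKM at E13.5 (SD, n = 7), 1.17 ± 0.602 at 6 weeks and 0.846 ± 0.299 at 16 weeks (n = 6 each), 0.597 ± 0.167 in TAC hearts and 0.160 ± 0.0357 in sham hearts (n = 4 each). Fbn1 averaged 43.1 ± 4.14, 21.3 ± 8.36, 15.8 ± 2.10, 44.4 ± 10.4 and 16.5 ± 1.87 RPKM in the same groups. Fbn2 made up 66.9 ± 1.49% of fibrillin RPKM at E13.5, with 64.9% to 69.3% in single hearts, and at most 7.85% in any adult heart. The log2 count ratio of Fbn2 over Fbn1, which does not depend on library scaling, averaged 0.55 ± 0.10 at E13.5 and -4.70 ± 0.50 in unoperated adults. The difference was 5.25 (two-sided exact permutation p = 3.97e-05, the smallest these 7 and 12 hearts can give, 0.000119 after adjustment over 9 ratio tests).

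**Figure D3:**
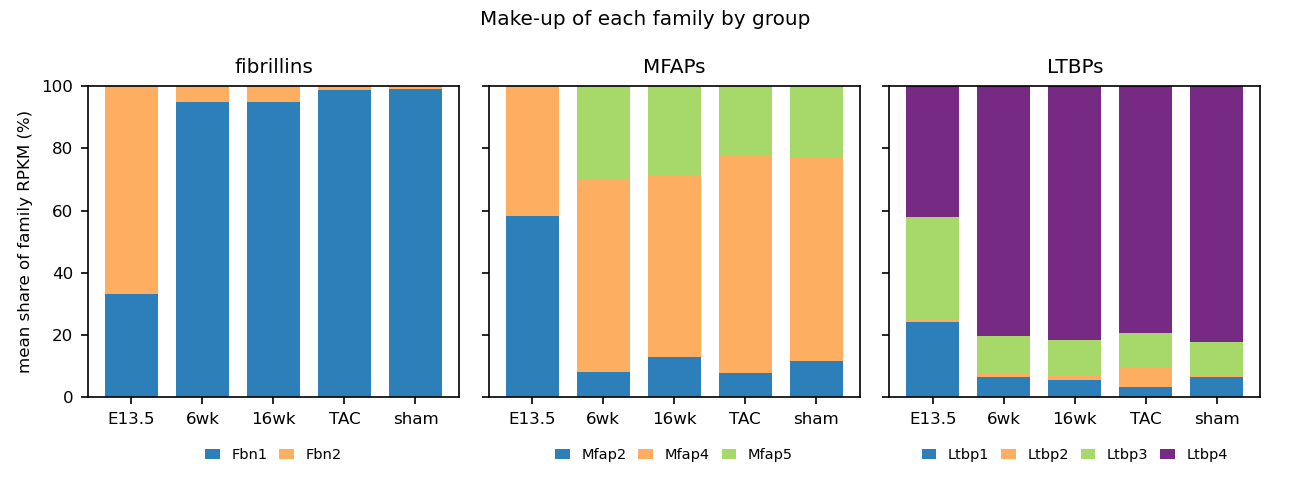
Mean share of each family's summed RPKM (%, stacked bars, summing to 100 in each group) for the fibrillins, the Mfap genes and the LTBPs, in groups from E13.5 on the left to sham on the right. Fbn2 takes 66.9% of fibrillin RPKM at E13.5, and Ltbp4 takes 42.3% of LTBP RPKM there against 79.2% to 82.2% in the 4 adult groups.

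Of the microfibril-associated genes, Mfap2, whose product MAGP-1 binds fibrillin and TGF-beta family growth factors, stood at 120 to 197 CPM (median 132) at E13.5, against 0.483 to 5.58 CPM (median 3.33) in unoperated adults. The adult values rest on 1 to 13 counts per heart. The groups were wide apart, and the log2 fold change was 5.44 ± 0.17 (adjusted p = 6.50e-19). Mfap4, a fibrinogen-related glycoprotein gene whose product binds elastic fibres, stood at 98.3 to 231 CPM (median 162), against 15.9 to 56.3 CPM (median 28.7), with no overlap (log2 fold change 2.44 ± 0.17, adjusted p = 1.29e-10).

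Mfap5, whose product MAGP-2 is a relative of MAGP-1, went the other way. It stood at 3.64 to 5.51 CPM (median 4.40) at E13.5, against 18.4 to 46.9 CPM (median 26.3) in unoperated adults, and every embryo was below every adult (log2 fold change -2.64 ± 0.12, adjusted p = 2.53e-18). Mfap2 made up 58.1 ± 4.52% of the summed Mfap RPKM at E13.5, 8.09 ± 4.11% at 6 weeks and 13.0 ± 6.09% at 16 weeks, while Mfap5 made up 0.606 ± 0.139%, 30.0 ± 4.80% and 28.7 ± 5.41%. The log2 count ratio of Mfap2 over Mfap5 was 4.95 ± 0.39 at E13.5 and -3.29 ± 1.06 in unoperated adults, a difference of 8.24 (exact permutation p = 3.97e-05, adjusted 0.000119).

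Ltbp4 was lower and Ltbp1 and Ltbp3 were higher at E13.5. Ltbp4, whose product binds fibulin-5 and takes part in elastic fibre assembly, stood at 230 to 362 CPM (median 296) at E13.5, against 723 to 1267 CPM (median 924) in unoperated adults, with no overlap (-1.65 ± 0.12, adjusted p = 3.76e-11). Ltbp1, which binds latent TGF-beta and tethers it to the matrix, stood at 235 to 306 CPM (median 268), against 97.4 to 193 CPM (median 107), and rose by 1.29 ± 0.09 (adjusted p = 2.80e-12). Ltbp3, another carrier of latent TGF-beta, stood at 153 to 204 CPM (median 177), against 90.8 to 120 CPM (median 106), and rose by 0.78 ± 0.07 (adjusted p = 1.02e-11).

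Per length, Ltbp4 was nonetheless the most abundant LTBP RNA in all 5 groups. It averaged 45.9 ± 7.49 RPKM at E13.5, 141 ± 25.9 at 6 weeks, 147 ± 29.6 at 16 weeks, 259 ± 22.2 in TAC hearts and 159 ± 18.4 in sham hearts. Its share of LTBP RPKM was 42.3 ± 1.89% at E13.5, 80.3 ± 3.11% at 6 weeks and 81.6 ± 2.75% at 16 weeks. The embryonic remainder was mostly Ltbp3, with 32.5 ± 1.78%, and Ltbp1, with 24.1 ± 1.89%. The log2 count ratio of Ltbp3 over Ltbp4 was -0.73 ± 0.12 at E13.5 and -3.14 ± 0.20 in unoperated adults, a difference of 2.42 (exact permutation p = 3.97e-05, adjusted 0.000119).

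Ltbp2, the LTBP that does not bind latent TGF-beta, was low at both stages. It stood at 6.04 to 11.3 CPM (median 7.56) at E13.5, against 3.97 to 24.5 CPM in unoperated adults (mean 13.2 ± 6.22, SD, n = 12), and the groups overlapped. Its log2 fold change was -0.78 ± 0.25 (adjusted p = 0.00685). The direction rests on which adults are used: against sham hearts, which share the quality encoding and depth range of the embryonic libraries, it was 0.39 ± 0.17 (adjusted p = 0.0469). Against sham hearts each of the other 8 members tested passed in the direction given above.

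Markers of other cells differed between the stages as well. Of 8 fibroblast markers, 4 were higher at E13.5, including Col1a1, and 4 lower, including Dcn, and their summed level was 1898 to 3768 CPM at E13.5, against 3191 to 5753 CPM at 6 weeks and 2899 to 3927 CPM at 16 weeks. The largest part of that sum was Col1a1 at E13.5 (1250 ± 430 CPM, SD) and Gsn in unoperated adults (2334 ± 535 CPM). All 6 epicardial markers were higher at E13.5, with a sum of 232 to 302 CPM, against 8.72 to 18.8 CPM at 6 weeks and 10.1 to 18.9 CPM at 16 weeks. All 4 erythroid markers tested of 5 and 3 of 4 atrial markers tested of 5 were higher as well, and all 6 cardiomyocyte and all 5 macrophage markers were lower. Of 6 smooth muscle markers, 3 were higher and 3 lower. Of 5 pericyte markers, 1 was higher and 4 lower, with a sum of 413 to 523 CPM at E13.5, against 1405 to 1679 CPM at 6 weeks and 1345 to 1508 CPM at 16 weeks. Of the 4 endothelial markers tested of 5, 1 was higher and 2 lower, and of 3 endocardial markers 2 were higher and 1 lower. Whole hearts, with atria, valves and great vessel roots, were set against ventricular apexes, so that stage cannot be told apart from region, and in bulk RNA fewer cells of a type cannot be told apart from less RNA per cell. The part of these markers in the members' differences was not tested.

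Other genes of the pathway are given by list, and their counts are to be read against the 44.1% of all features tested that were higher at E13.5 and the 39.7% that were lower. In a list of 15 genes of elastic fibre assembly and crosslinking, 10 of the 13 tested were higher at E13.5 by edgeR, 0 were lower (also 0 at an unadjusted p under 0.05, and 0 by DESeq2) and 3 did not pass, with a median log2 fold change of 0.72. Up to 2 of these genes were lower under other settings, the 2 against 6-week hearts alone. Vcan, the large matrix proteoglycan versican, was at 4.17 ± 0.15, the crosslinking enzyme genes Lox and Loxl2 at 3.84 ± 0.31 and 2.42 ± 0.09, and Fbln5, the fibulin that brings elastin to microfibrils, at 1.92 ± 0.14 (adjusted p from 9.45e-20 to 8.54e-10). Lox stood at 30.4 ± 10.4 CPM at E13.5, against 2.27 ± 1.80 CPM in unoperated adults.

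Of 15 genes of TGF-beta release and reception, 8 were higher at E13.5 and 6 lower, or 3 lower with upper-quartile scaling or no filter, with a median of 0.19. Thbs1, thrombospondin 1, which can release active TGF-beta, was at 4.55 ± 0.26, Itgb3 at 2.76 ± 0.13 and the ligand gene Tgfb2 at 2.59 ± 0.09. Itgb6, a subunit of an integrin that activates latent TGF-beta, fell by 7.39 ± 0.27 to 0.136 ± 0.121 CPM at E13.5, against 24.1 ± 5.95 CPM in unoperated adults. Of 12 genes known to respond to TGF-beta, 9 were higher and 3 lower (median 1.47), among them Fn1, fibronectin (4.64 ± 0.08), and Postn, periostin (3.24 ± 0.19). Acta2, smooth muscle actin, which is also on the smooth muscle marker list, was at 2.14 ± 0.22. The 6 elastin turnover genes tested of 9 went both ways, 3 higher and 3 lower, or 1 lower with upper-quartile scaling (median 0.04), with the membrane protease gene Mmp14 at 2.70 ± 0.10, the lysosomal galactosidase gene Glb1 at 1.0 ± 0.09, and Mmp2 at 0.28 ± 0.09 (adjusted p = 0.00438). The largest change was that of Ctsk, cathepsin K, with 0.397 ± 0.357 CPM at E13.5 and 6.30 ± 2.26 CPM in unoperated adults (-3.88 ± 0.30, adjusted p = 7.74e-13), and the other lower genes were Ctsa (-0.20 ± 0.05, adjusted p = 7.28e-04) and Ctss (-0.31 ± 0.14, adjusted p = 0.0402), both cathepsin genes. The Ctss call was lost in 9 of 19 fits with a single library left out, and the Mmp2 call against 6-week hearts alone (0.19, adjusted p = 0.112). Without the sex-discordant libraries the counts higher and lower were 11 and 0 for assembly, 7 and 6 for release, 9 and 3 for response and 3 and 3 for turnover. Fbln5 keeps 61.8% of its exonic bases to itself.

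**Figure D4:**
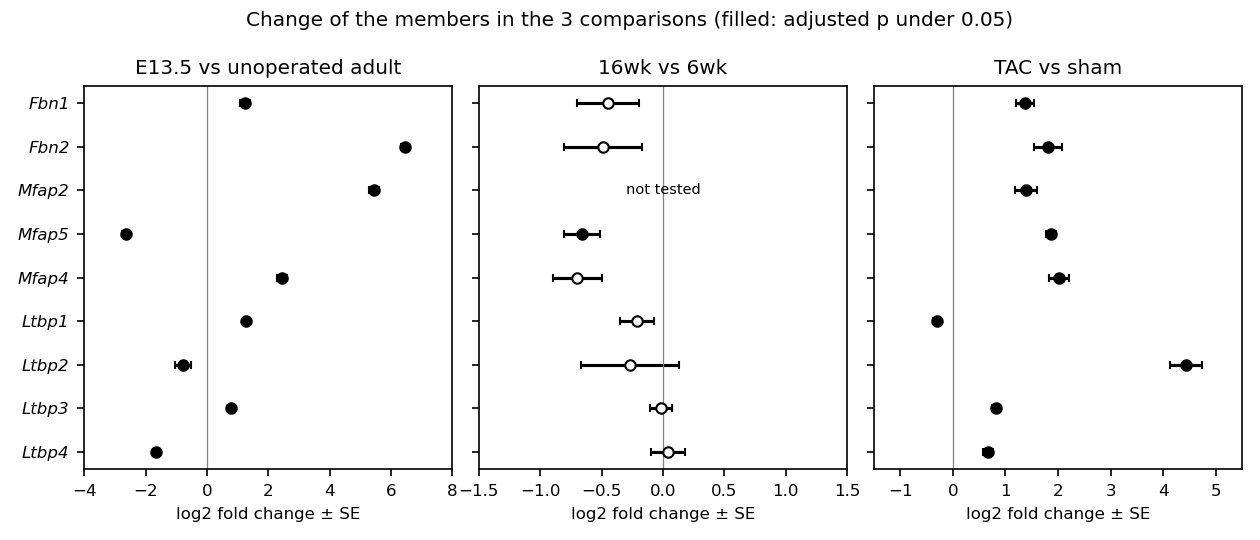
Log2 fold changes (edgeR, bars ± SE) of the 9 measurable members in the 3 comparisons, with the first-named group over the other, and filled points for adjusted p under 0.05; the axes differ in range. The E13.5 panel runs from -2.64 for Mfap5 to 6.46 for Fbn2, the age panel holds 1 filled point (Mfap5), and in the TAC panel all points but Ltbp1 lie above 0, with Ltbp2 at 4.44.

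Between 16 and 6 weeks, a comparison of young adult maturation, little separated the members. Of the 8 tested, 0 were higher and 1 lower at 16 weeks, where 1.32% of the 10394 features tested were higher and 1.19% lower (by DESeq2, and at an unadjusted p under 0.05 in edgeR, 0 were higher and 2 lower). The members' median was -0.36, against -0.01 over all features tested. Mfap2 and Eln did not pass the filter on low counts. The 1 lower member was Mfap5, at 18.4 to 26.0 CPM (median 22.7) at 16 weeks, against 26.5 to 46.9 CPM (median 34.0) at 6 weeks. Its groups lay just apart, as those of 2.05% of all features did, and its log2 fold change was -0.66 ± 0.15 (adjusted p = 0.0171). That call was lost without 16-week replicate 3 (-0.62, adjusted p = 0.0534), without 6-week replicate 5 (-0.56, adjusted p = 0.0507) and without the 4 sex-discordant libraries (-0.65, adjusted p = 0.0954).

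Mfap4 stood at 15.9 to 30.4 CPM (median 23.7) at 16 weeks, against 19.7 to 56.3 CPM (median 39.7) at 6 weeks. The groups overlapped, with 6-week replicate 3 lowest of its group, and the log2 fold change of -0.70 ± 0.20 did not pass (adjusted p = 0.0794). Without 6-week replicate 3 it was -0.84 (adjusted p = 0.00604). None of the LTBPs passed. The log2 fold change was -0.02 ± 0.09 for Ltbp3 (adjusted p = 0.936), 0.04 ± 0.14 for Ltbp4 (0.933), -0.21 ± 0.14 for Ltbp1 (0.491) and -0.27 ± 0.40 for Ltbp2 (0.791). Fbn1 was at -0.45 ± 0.25 (0.417) and Fbn2 at -0.49 ± 0.32 (0.460). Fbn2 rested on 9 to 41 counts per heart at these ages and Ltbp2 on 9 to 53, which widens their errors.

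None of the 3 count ratios passed between the ages. The difference of 16-week minus 6-week mean log2 ratios was -0.02 for Fbn2 over Fbn1 (exact permutation p = 0.957), 0.82 for Mfap2 over Mfap5 (p = 0.208) and -0.05 for Ltbp3 over Ltbp4 (p = 0.641), with adjusted p = 0.957, 0.267 and 0.721. Without 16-week replicate 2, which held 1 count of Mfap2, the Mfap2 over Mfap5 difference was 1.18 and passed (adjusted p = 0.0292). In the assembly and crosslinking list 1 of 12 genes tested was lower at 16 weeks, Loxl2 (-0.54 ± 0.14, adjusted p = 0.0388), a call lost in 7 of 12 fits with a single library left out and without the sex-discordant libraries (-0.40, adjusted p = 0.305). None of the 13 release and receptor genes, 11 response genes or 6 turnover genes tested passed by edgeR, and 2 response genes passed by DESeq2, both lower. At an unadjusted p under 0.05 in edgeR, 7 response genes and 2 turnover genes were lower, and 2 release genes higher and 1 lower. Without 6-week replicate 3, 3 response genes were lower, and without 6-week replicate 6, 1 release gene was higher. Without the sex-discordant libraries 1 assembly gene and 1 release gene were lower. Of 8 fibroblast markers, 2 were lower at 16 weeks, Dpt (-0.58 ± 0.14) and Col1a2 (-0.39 ± 0.10), with sums of 2899 to 3927 CPM at 16 weeks, against 3191 to 5753 CPM at 6 weeks. The part of these cells in the Mfap5 difference was not tested.

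The comparison of TAC with sham surgery asks how the adult heart answers pressure overload, and in TAC hearts nearly the whole microfibril set was higher. Ltbp2 was 21.8-fold higher in TAC hearts, Mfap4 4.08-fold, Mfap5 3.65-fold, Fbn2 3.52-fold, Mfap2 2.63-fold and Fbn1 2.61-fold, followed by Ltbp3 at 1.77-fold and Ltbp4 at 1.59-fold. Ltbp1 was the 1 member lower, by 1.23-fold. Of the 9 members tested, 8 were thus higher and 1 lower, where 19.6% of the 14555 features tested were higher and 18.4% lower. Their median log2 fold change was 1.39, against 0.00 over all features tested. The TAC and sham hearts did not overlap for 8 of the 9 (Ltbp1 overlapped), as for 35.7% of all features. Without the 4 sex-discordant libraries, which left 2 hearts per group, 7 were higher and 1 lower.

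Ltbp2 had 173, 76.8, 129 and 112 CPM in the 4 TAC hearts, against 5.42, 6.09, 4.62 and 5.51 CPM in the 4 sham hearts. Every TAC heart was far above every sham heart. The log2 fold change was 4.44 ± 0.30 (adjusted p = 5.48e-05), with 4.24 to 4.62 when single hearts were left out. Without the sex-discordant libraries it was 4.46 ± 0.78 and did not pass (adjusted p = 0.0593). Its share of LTBP RPKM was 6.10 ± 1.52% in TAC hearts and 0.467 ± 0.060% in sham hearts, and its level of 20.3 ± 6.59 RPKM in TAC hearts was above that of Ltbp1 there, 10.3 ± 0.768 RPKM. In the other 4 groups the mean of Ltbp2 was below that of Ltbp1. The sham mean of Ltbp2, 5.41 CPM, was also below the means of unoperated hearts, 14.4 CPM at 6 weeks and 12.1 CPM at 16 weeks. The sham range overlapped both of these ranges, and each TAC heart lay above each unoperated heart.

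The fold changes of the other LTBPs were smaller. Ltbp3 had 218, 184, 198 and 169 CPM in TAC hearts, against 106, 113, 107 and 97.5 CPM in sham hearts (0.82 ± 0.08, adjusted p = 2.36e-06). Ltbp4 had 1846, 1532, 1586 and 1742 CPM in TAC hearts, against 1011, 1172, 1037 and 881 CPM in sham hearts (0.67 ± 0.09, adjusted p = 2.83e-05). For both, each TAC heart was above each sham heart. Ltbp1 had 98.8, 113, 106 and 117 CPM in TAC hearts, against 133, 114, 139 and 136 CPM in sham hearts. Its groups overlapped through sham replicate 2, and its log2 fold change of -0.30 ± 0.08 (adjusted p = 0.00590) did not pass when all 27 libraries shared 1 fit (-0.26 ± 0.13, adjusted p = 0.128).

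Both fibrillins rose. Fbn1 had 575, 382, 647 and 448 CPM in TAC hearts, against 206, 180, 166 and 212 CPM in sham hearts (1.38 ± 0.17, adjusted p = 4.48e-04). The lowest TAC heart was above the highest sham heart, and the TAC mean of 44.4 RPKM was close to the embryonic 43.1 RPKM, with overlapping ranges. Fbn2 had 6.57, 5.76, 4.07 and 3.59 CPM in TAC hearts, against 1.44, 1.38, 0.925 and 1.63 CPM in sham hearts (1.81 ± 0.26, adjusted p = 8.62e-05), resting on 31 to 59 counts per TAC heart and 6 to 16 per sham heart. Fbn2 remained a minor fibrillin, with 1.39 ± 0.519% of fibrillin RPKM in TAC hearts and 0.953 ± 0.134% in sham hearts. Its TAC mean of 5.0 CPM was also below the means of unoperated hearts, 9.77 CPM at 6 weeks and 7.09 CPM at 16 weeks, with ranges that overlapped both.

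All 3 microfibril-associated genes rose. Mfap5 had 90.5, 82.5, 90.9 and 76.4 CPM in TAC hearts, against 24.9, 18.4, 26.4 and 21.3 CPM in sham hearts (1.87 ± 0.10, adjusted p = 3.88e-08). Mfap4 had 155, 179, 121 and 110 CPM in TAC hearts, against 28.4, 33.5, 43.2 and 30.2 CPM in sham hearts (2.03 ± 0.19, adjusted p = 1.28e-04). Mfap2 had 9.36, 11.9, 11.5 and 6.61 CPM in TAC hearts, against 4.42, 3.90, 2.47 and 3.57 CPM in sham hearts (1.39 ± 0.21, adjusted p = 1.28e-04). In each case the groups were apart. Mfap2 in TAC hearts, at 8.66 ± 2.14 RPKM, was far from its embryonic 123 ± 23.1 RPKM, whereas Mfap4, at 77.0 ± 17.2 RPKM, overlapped its embryonic range of 53.6 to 126 RPKM.

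None of the 3 count ratios within families passed under TAC. The difference of TAC minus sham mean log2 count ratios was 0.43 for Fbn2 over Fbn1 (exact permutation p = 0.200), -0.48 for Mfap2 over Mfap5 (p = 0.171) and 0.14 for Ltbp3 over Ltbp4 (p = 0.143), each with adjusted p = 0.267. With 4 against 4 hearts the smallest possible p is 0.0286, and after adjustment over 9 tests a single ratio at that p would not pass, so these tests show neither a difference nor its absence. The summed RPKM of the family was 45.0 ± 10.3 in TAC and 16.7 ± 1.91 in sham hearts for the fibrillins, 109 ± 19.2 and 27.9 ± 3.45 for the Mfap genes, and 328 ± 29.6 and 193 ± 18.9 for the LTBPs.

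**Figure D5:**
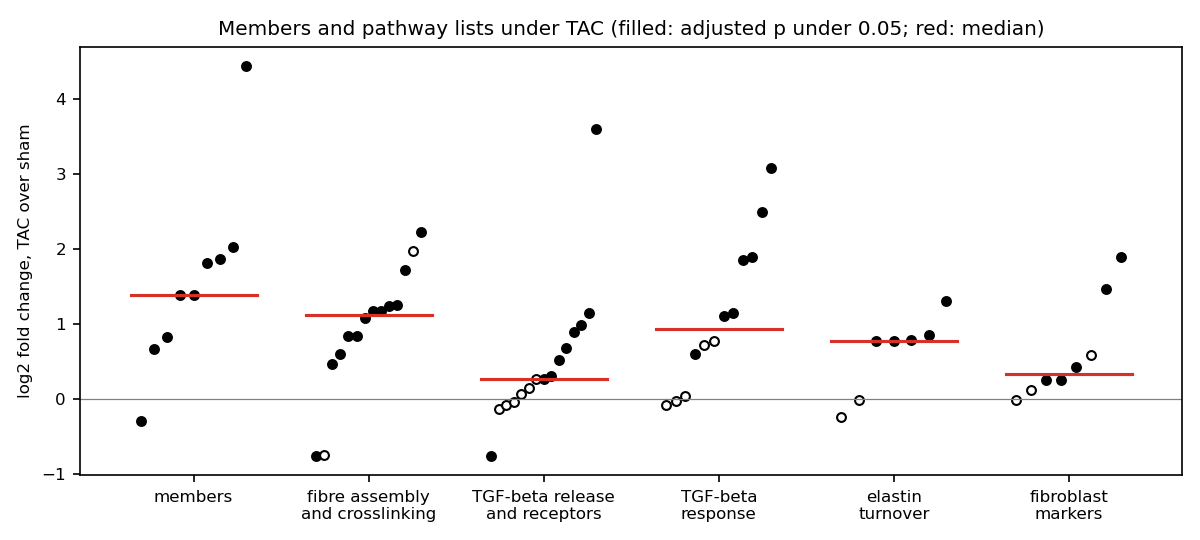
Log2 fold change of TAC over sham (edgeR) for the 9 measurable members, 4 pathway lists and the fibroblast markers, 1 point per gene tested, filled where adjusted p is under 0.05, with the list median in red. The medians are 1.39 for the members, 1.12 for assembly and crosslinking, 0.26 for release and receptors, 0.94 for response genes, 0.77 for elastin turnover and 0.34 for fibroblast markers.

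Counts by list and of markers under TAC are to be read against the 19.6% of all features tested that were higher and the 18.4% lower. Most assembly genes rose too. Of 14 tested, 11 were higher under TAC, 1 was lower and 2 did not pass (median 1.12), and 11 were higher and 2 lower without the sex-discordant libraries. Adamtsl2, whose product binds LTBP-1 and fibrillin-1, had 133 ± 39.2 CPM in TAC hearts and 28 ± 11.8 CPM in sham hearts (SD, n = 4 each), a log2 fold change of 2.23 ± 0.36 (adjusted p = 0.00406) that was 3.04 without the sex-discordant libraries (adjusted p = 0.0173). The crosslinking enzyme gene Loxl1 had 180 ± 26.7 CPM in TAC and 52.7 ± 8.78 CPM in sham hearts (1.72 ± 0.13, adjusted p = 5.51e-06). Vcan was at 1.25 ± 0.12 (adjusted p = 2.05e-06) and Loxl2 at 1.24 ± 0.27 (adjusted p = 0.0120). Lox itself, at 1.97 ± 0.67, did not pass (adjusted p = 0.0598), and Emilin2, a microfibril-associated glycoprotein gene, was the 1 lower gene (-0.76 ± 0.16, adjusted p = 0.00421).

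Of 15 release and receptor genes, 8 were higher under TAC and 1 lower (median 0.26), and 5 were higher and 1 lower without the sex-discordant libraries. The ligand genes all rose, Tgfb2 by 1.14 ± 0.12, Tgfb3 by 0.89 ± 0.08 and Tgfb1 by 0.52 ± 0.08 on the log2 scale (adjusted p from 1.50e-06 to 1.41e-04). Thbs1 had 146 ± 98.1 CPM in TAC and 11.7 ± 2.68 CPM in sham hearts (3.6 ± 0.56, adjusted p = 0.00338), and its call was lost without the sex-discordant libraries (3.98, adjusted p = 0.0760). Itgb3 was at 0.98 ± 0.18 and Tgfbr3, the co-receptor betaglycan, was the 1 lower gene (-0.76 ± 0.08, adjusted p = 7.47e-06). Of the signalling receptor genes, Tgfbr2 rose by 0.26 ± 0.08 (adjusted p = 0.0209) and Tgfbr1 did not pass (-0.04 ± 0.13, adjusted p = 0.840).

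Of 12 response genes, 7 were higher under TAC by edgeR, 0 were lower (also 0 at an unadjusted p under 0.05, and 0 by DESeq2) and 5 did not pass (median 0.94). Without the sex-discordant libraries 8 were higher and 1 lower. Timp1, a protease inhibitor gene, was at 3.08 ± 0.56, Postn at 2.49 ± 0.31, and the collagen genes Col1a1 and Col3a1 at 1.90 ± 0.22 and 1.86 ± 0.34 (adjusted p from 6.16e-04 to 0.00633). The Postn call was lost without the sex-discordant libraries (2.17, adjusted p = 0.0621). Of the early targets, Smad7 was at -0.03 ± 0.10 (adjusted p = 0.833) and Skil at 0.03 ± 0.09 (adjusted p = 0.825), and neither passed. Of 7 elastin turnover genes tested, 5 were higher (4 by DESeq2, and 5 without the sex-discordant libraries) and 0 lower by edgeR, by DESeq2 and at an unadjusted p under 0.05 (median 0.77), with Mmp14 at 1.31 ± 0.09, Mmp2 at 0.85 ± 0.07, and the cathepsin genes Ctsk and Ctss both at 0.77. Mmp12, macrophage elastase, was too low to be tested, and Neu1 has no exonic base of its own.

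Markers of several cell types differed under TAC too. Of 8 fibroblast markers 5 were higher and 0 lower (0 also by DESeq2 and at an unadjusted p under 0.05), with a sum of 4256 to 5636 CPM in TAC hearts, against 3176 to 3330 CPM in sham hearts, and none of the 8 was at 0 in a group. Most of that sum was Gsn, at 2838 ± 241 CPM in TAC and 2324 ± 87.3 CPM in sham hearts (SD). The 2 largest changes were those of Col1a1 (1.90 ± 0.22) and Col1a2 (1.47 ± 0.22), which are matrix genes, and Col1a1 is also on the response list. Pdgfra was at 0.25 ± 0.07 and Tcf21 at 0.42 ± 0.15, whereas Dcn (-0.02 ± 0.10), Dpt (0.12 ± 0.08) and Lum (0.58 ± 0.25) did not pass. Of 6 smooth muscle markers 2 were higher, with a sum of 7595 to 8761 CPM in TAC hearts, against 4366 to 4728 CPM in sham hearts; most of that sum is Des, desmin, which cardiomyocytes also express. Myh11 (0.02 ± 0.17) and Acta2 (-0.08 ± 0.20) did not pass. The 5 macrophage markers summed to 235 to 348 CPM in TAC hearts, against 182 to 216 CPM in sham hearts, with 1 higher by edgeR (3 by DESeq2), and the atrial markers, which include genes that stressed ventricles also express, to 2466 to 3887 CPM in TAC hearts, against 210 to 245 CPM in sham hearts. Nearly all of the atrial sum was Nppa, at 3093 ± 617 CPM in TAC and 221 ± 15.1 CPM in sham hearts (SD). Myl4 was higher too, at 5.87 ± 2.79 against 1.81 ± 0.295 CPM, with overlapping ranges. Myl7, Bmp10 and Sln were too low to be tested. Of 5 pericyte markers 2 were higher and 2 lower (Abcc9 -0.60 ± 0.07 and Rgs5 -0.43 ± 0.10). Of 6 cardiomyocyte markers 1 was higher and 2 lower (Ryr2 -0.62 ± 0.07 and Tnni3 -0.43 ± 0.07). The part of these cells in the members' changes was not tested.

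Across all 5 groups the members fell into different orders. Fbn2, Mfap2, Mfap4 and Ltbp1 were highest at E13.5, and Ltbp2, Ltbp4 and Mfap5 under TAC, each apart from the next group except Mfap4, whose E13.5 and TAC ranges overlapped. For Ltbp3 the TAC and E13.5 ranges overlapped at the top and lay apart from the other 3 groups. Fbn1 showed the same order at the top, but its lowest TAC heart (382 CPM) was below the highest 6-week heart (399 CPM). Sham and unoperated hearts differed for a few: Mfap5 was higher at 6 weeks (35.1 ± 7.58 CPM) than in sham hearts (22.7 ± 3.6 CPM) with ranges apart, and Fbn2 stood at 4.12 CPM or more in each unoperated adult and at 1.63 CPM or less in each sham heart. These are levels, with no test, and age, surgery, depth and encoding cannot be told apart between those groups.

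The coding genes whose pattern was most like each member, by Pearson's r of log2 CPM over the 27 libraries among 9856 genes with a mean of at least 5 CPM, were a mixed set. These values describe likeness across 5 groups that lie far apart, and carry no test. For Fbn1 they were the matrix genes Col3a1 (0.938), Postn (0.926) and Col1a1 (0.920), and for Ltbp3 they were Mrc2 (0.942), a collagen uptake receptor gene, Aebp1 (0.931) and Gpr153 (0.930). Ltbp2 had the least close partners, Olfml3 (0.844), Bgn (0.840), the proteoglycan biglycan, and the basement membrane collagen gene Col4a2 (0.825). Mfap4 was closest to Col1a1 (0.934), Actb (0.933) and Xpnpep1 (0.928), and Mfap5 to Inpp5j (0.966), Col8a1 (0.965) and Cilp (0.964). Bgn, Postn, Col3a1 and Gpr153 keep 51.5% to 64.6% of their exonic bases to themselves, so that part of their reads may be missing.

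For the members that mainly part embryo from adult, the partners were of other kinds. Fbn2 was closest to Sipa1l1 (0.980), the connexin gene Gja5 (0.977) and the cadherin gene Cdh11 (0.977). Mfap2 was closest to Bat1a (0.970), Sema4g (0.969) and Cenpe (0.969), a kinesin of dividing cells. Ltbp1 was closest to Mbtps1 (0.963), Unc13b (0.957) and Dhx9 (0.957). Ltbp4 was closest to Ndufb6 (0.976), a subunit gene of respiratory complex I, and then to Adrbk1 (0.975) and Klc2 (0.974).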

How the data were processed

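Each of the 27 libraries was 1 heart, sequenced as single-end reads that do not keep strand, per the labels. The deposited values are raw counts per feature. The submitters' processing notes name Bowtie, TopHat 1.3.0, HTSeq, DESeq, edgeR and the build mm9 (NCBIM37); the sources used here give neither counting mode nor strand setting. The line of totals was left out. The members, lists and markers were chosen with earlier results of these data known. From the deposited counts, edgeR 4.0.16 (limma 3.58.1, R 4.3.3) ran its quasi-likelihood test with TMM factors. Its expression filter had first removed features that reached the CPM equivalent of 10 counts in too few libraries, or held below 15 counts in all. The fit was checked only on simulated counts with the same relative spread for every feature, so the check does not cover features that vary more. For E13.5 the reference was the 6-week and 16-week hearts weighted equally, in 1 fit. Count ratios used log2((count + 0.5)/(count + 0.5)) and exact two-sided permutation tests (scipy 1.17.1). Numpy 2.4.6 and matplotlib 3.10.9 (Python 3.11.15) drew the figures. The alternatives comprised DESeq2 1.42.0, RLE or upper-quartile scaling, no filter, all libraries in 1 fit, a replicate block, other adult references, embryonic counts thinned to adult depth, all exonic bases as length, and libraries left out. For the pathway lists these were added after seeing the data. Named genes were the 10 members, in each list up to 4 called genes of largest change with a mean of at least 5 CPM, and for each member the 3 coding genes most like it; further list genes were named after their values were seen. Some genes that this rule names are not reported here. The TAC heart labelled female, whose number repeats that of a male one, is replicate 4. P-values judge a difference between groups against the spread between hearts, and low counts limit precision.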

Additional observations from a re-analysis of the deposited data

Results flagged for a closer look

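In 45 groups of values (9 members in 5 groups of hearts), 3 held a heart far from the others of its group, by the gap to its nearest neighbour relative to the group's range. Chance marks about 1 in 20 such groups. Ltbp1 stood at 193 CPM in 6-week replicate 2, against 99.3 to 111 CPM in the other 6-week hearts, and the summed fibroblast markers of that heart were the highest among unoperated adults, at 5753 CPM. Ltbp2 stood at 11.3 CPM in E13.5 replicate 3, against 6.04 to 7.73 CPM in the other embryos. Mfap2 stood at 197 CPM in the same embryo, against 120 to 144 CPM in the others. That embryo held 690 counts of Y-linked genes. E13.5 replicate 3 also had the highest Fbn1, Ltbp4 and Mfap4 of the embryos (572, 362 and 231 CPM), the lowest Mfap5 (3.64 CPM) and the highest summed fibroblast markers (3768 CPM, against 1898 to 2705 CPM). How the members' values in these hearts relate to the summed fibroblast markers was not tested. Without E13.5 replicate 3 the calls of all 9 members tested were the same.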

How the results depend on the processing

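Every member kept its direction and call in the E13.5 comparison under every alternative, except Ltbp2, which was 0.39 against sham hearts. The scaling alternatives changed no member's direction or call in the 3 comparisons; upper-quartile scaling moved the median of all features at E13.5 from 0.07 to 0.19, which is small against the members' changes there. With no filter, 12197 features were higher at E13.5. Between 16 and 6 weeks, members lower numbered 2 with DESeq2, with no filter and with the replicate block (Mfap5 and Mfap4) and 0 without the sex-discordant libraries; features higher and lower were 219 and 289 with no filter, 230 and 190 with all 27 libraries in 1 fit, and 74 and 64 without the sex-discordant libraries. Under TAC, members lower numbered 0 with all libraries in 1 fit, and 1767 features were lower with the replicate block over replicates 1 to 3. Fbn2 at E13.5 was 69.6 RPKM with all exonic bases as length. With single libraries left out, features higher and lower ran from 51 to 207 and from 56 to 165 between the ages, and members lower from 0 to 2. They ran from 5457 to 5766 and from 4941 to 5118 at E13.5, and from 2368 to 2840 and from 2153 to 2729 under TAC. The age difference of Mfap2 over Mfap5 ran from 0.41 to 1.18. Replicate numbers shared between groups did not pair the hearts: the correlations of their deviations ran from -0.04 to 0.04, and 1 of 6 hearts at 16 weeks was closest to its own number at 6 weeks. Beyond the counts above, the replicate block changed the calls of Ctss at E13.5 (-0.29, adjusted p = 0.0806), of Mfap4 between the ages (-0.70, adjusted p = 0.0178) and, under TAC, of Loxl2, Adamtsl2, Thbs1 and Col3a1, which did not pass with it. With it 2 assembly genes were lower between the ages, and 5 release genes higher under TAC. Low adult counts of Fbn2, Mfap2 and Ltbp2 limit their precision. The causes of these changes were not tested.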
